A study of Homo sapiens with 6 samples.

Results

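A group of 127 genes stayed near the inhibitor baseline after 3 days of TGFβ and rose only between 3 and 7 days in H2087-LCC cells, a latency competent population selected from a human LUAD (lung adenocarcinoma) line for its ability to stay dormant. The genes were chosen from their own values on the log2(normalized count + 1) scale. A gene entered when its mean over the 6 libraries was at least 50, its 3-day mean lay within 0.4 of the SB mean, and its 7-day mean lay more than 1 above the 3-day mean. This left 127 of 21293 listed genes, or 127 of the 12307 genes that averaged 50 or more. They are called late risers here. Among the same 12307 genes, 421 rose by more than 1 from 3 to 7 days: 191 of these were already higher than SB at 3 days by 0.4 or more, 103 were lower than SB at 3 days by 0.4 or more, and the late risers were the remainder.

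RNA-seq had been performed on 3 groups of 2 libraries: cells with the TGFβ type I receptor inhibitor SB505124 for 3 days (SB), with TGFβ for 3 days, and with TGFβ for 7 days. SB blocks the signal that the cells make for themselves and so sets the baseline. SB was sampled at 3 days alone, so a difference between 7 days and SB, or between 7 and 3 days, also holds time in culture, and the TGFβ effect and the time cannot be told apart. All cultures were of the same selected population in low-serum medium. The pairs are technical replicates by the wording of the study, so their spread may cover library preparation and sequencing but not independent cultures. In bulk RNA, fewer cells that express a gene and less RNA per cell cannot be told apart.

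TGFβ binds a pair of serine/threonine kinase receptors that phosphorylate SMAD2 and SMAD3, which then enter the nucleus with SMAD4. Direct SMAD targets usually respond within hours, while the epithelial-mesenchymal transition (EMT), growth arrest and matrix changes unfold over days. In LUAD cells, sustained TGFβ can drive both EMT and a quiescent state.

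The deposited normalized counts summed to between 34306283 and 36340734 per library, a ratio of 1.06 between the highest and the lowest. Lung epithelial identity was checked with 10 markers, whose summed count lay between 89488 and 125111 in every library, mostly from keratins. Single markers changed more than the sum. At 3 days against SB, 1 was called higher and 7 lower, with a median log2 difference of -1.29. At 7 against 3 days, 0 were called higher and 4 lower, with a median of -0.18. SFTPB, a surfactant gene, was at 1104 and 8273 in SB, 24 and 24 at 3 days and 22 and 19 at 7 days. KRT7 was at 5860 and 6183, then 15440 and 18905, then 13979 and 11230. CDH1 (E-cadherin) was at 371 and 635 in SB, 28 and 24 at 3 days and 10 and 9 at 7 days, so this epithelial adhesion gene was already low before the late risers rose. NKX2-1, the lung lineage transcription factor, was at 2784 and 2908, then 712 and 748, then 853 and 857. The 10 fibroblast markers summed to 237 and 278 in SB, 368 and 449 at 3 days and 998 and 792 at 7 days. Of these, 6 (COL1A2, COL3A1, DCN, DPT, LUM and THY1) were at 10 or less in every library, LUM at 0 throughout. PDGFRB, a growth factor receptor of mesenchymal cells, went from 21 and 17 to 66 and 75 and then 354 and 270, and FAP, a cell-surface protease of activated fibroblasts, from 4 and 0 to 10 and 14 and then 42 and 53. Of the 4 fibroblast markers tested, 3 were called higher and 0 lower at 7 against 3 days, with a median log2 difference of 1.34. PDGFRA, the tested marker that was not called, was at 14 and 8 in SB, 16 and 16 at 3 days and 13 and 8 at 7 days. The 3 called markers rose over the same interval as the late risers, and their part in the late rises was not tested. Of 10 leukocyte markers, 8 including PTPRC were at 10 or less in every library, and the sum of 4388 to 5140 was almost all CD68. Endothelial markers summed to 571 to 948, with 1 of 9 (CLDN5) at 10 or less in every library. No marker of any of these cell types was a late riser.

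**Figure D1:**
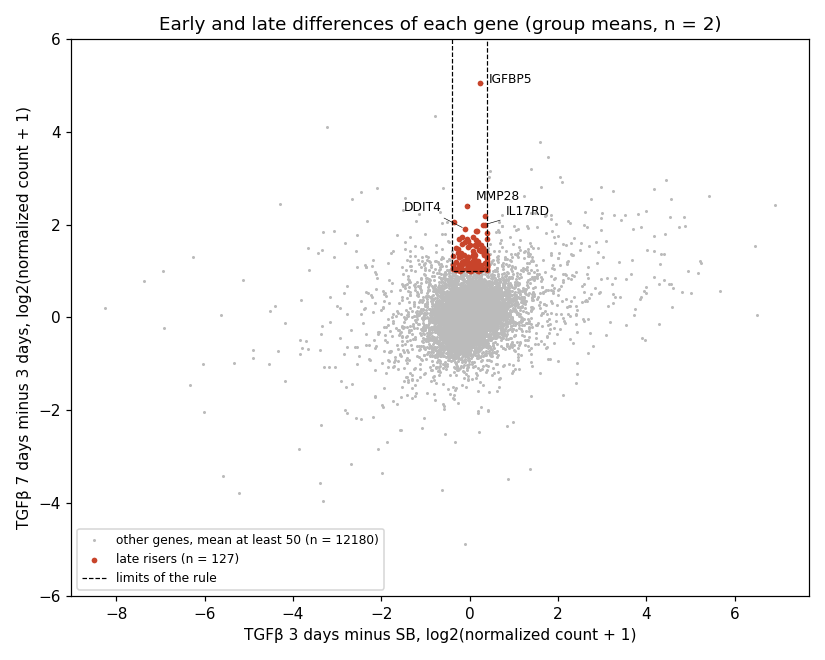
Each point is a gene with a mean normalized count of at least 50, with its difference between TGFβ 3 days and SB on the x axis and between TGFβ 7 days and 3 days on the y axis, both on the log2(normalized count + 1) scale from group means of 2 libraries. The 127 late risers (red) fill the strip inside the dashed limits, 63 of them below 1.2 on the y axis, and IGFBP5 stands far above the rest at 5.04.

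The late rise ranged from 1.0 to 5.04 on the log2 scale, with a median of 1.2. It exceeded 2 in 4 genes (IGFBP5, MMP28, STAC2 and HAS2-AS1) and 1.5 in 25 genes, and stayed under 1.2 in 63. The difference between 3 days and SB ranged from -0.39 to 0.40, with a median of 0.04, and the difference between 7 days and SB from 0.66 to 5.27, with a median of 1.28. Over all 12307 genes above that mean, the same medians were 0.00 for the rise, -0.02 and -0.02. These differences chose the genes and are a description, not a test. In all 127 genes both 7-day libraries lay above the other 4, as in 28.0% of the 12307 genes. The lowest 7-day value was 1.16 to 23 times the highest value of the other 4 libraries, with a median of 1.89, and it was at least 2 times as high in 46 genes.

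In the limma fit over 14395 genes, all 127 were called higher at 7 than at 3 days, where 17.0% of all tested genes were called higher. Against SB, 126 were called higher at 7 days, where 27.7% of tested genes were, and the exception was ZNF221, a zinc finger gene, with a difference of 0.66 and a limma adjusted p of 0.05864. All 3 comparisons bear on the choice of the genes, so nothing is read from these counts or the next. At 3 days against SB, 29.0% of tested genes were called in either direction, and 4 late risers were. IL17RD, IGFBP6 and SERPINA1 were slightly higher at 3 days by 0.34, 0.39 and 0.37, with limma adjusted p of 0.02279, 0.02514 and 0.00349. BTBD11, a BTB domain gene, was lower, with a difference of -0.32 and a limma adjusted p of 0.02312. By plain order of the libraries, 22 genes had both 3-day values above both SB values, 8 had both below, and in 52 both 3-day values lay inside the range of the SB pair.

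At the limits of the rule, genes on either side had like values. TBX19 (mean 50.8) and SATB1 (52.2) were just inside the limit on the mean, and PADI3 (49.8), C1orf233 (49.3) and SCART1 (49.2) just outside. Of these PADI3, which encodes a peptidylarginine deiminase, went from 15 and 20 in SB and 21 and 19 at 3 days to 108 and 116 at 7 days, a rise of 2.43. On the difference at 3 days, ZNF503, ORAI3 and DDR1 were just inside at 0.40, with ZNF554 and SCN4A outside at -0.40 and FOXO1 outside at 0.40. FOXO1, a transcription factor restrained by insulin and growth factor signaling, was at 113 and 178 in SB, 192 and 184 at 3 days and 497 and 570 at 7 days. On the rise itself, CROCCP3, L3MBTL1 and SPAG8 were inside at 1.0, and MMP15, RASSF4 and SEC31B were outside at 1.0 as well when rounded.

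Promoter sequence was described for these genes, which share a pattern because the rule chose it. RefSeq promoters (GRCh38.p14, 250 bases before to 50 after the start of the gene) were found for 95 of the 127 genes. Letters of 14 motifs were searched on both strands. The SMAD box CAGAC was in 42 of the 95 promoters (44.2%), in 42.5% of the promoters of genes with a mean of at least 50 and in 45.0% of all 27305 promoters. The AP-1 letters TGAGTCA were in 3 (3.16%, against 3.17% and 4.92%), and a degenerate NF-kB motif in 25 (26.3%, against 31.3% and 25.1%). TEAD letters GGAATG were in 13 (13.7%, against 10.6% and 14%) and FOXO letters GTAAACA in 4 (4.21%, against 2.20% and 3.41%), those of C10orf10, CTSF, IGFBP6 and ULBP1. The ZEB and SNAI E-box CACCTG was in 18 (18.9%, against 18% and 20.6%), the HIF letters ACGTG in 20 (21.1%, against 27.3% and 21.6%) and the SOX letters ACAAAG in 8 (8.42%, against 10.4% and 16%). STAT letters TTCNNNGAA were in 4 (4.21%, against 6.55% and 7.88%), MAF letters TGCTGAC in 2 (2.11%, against 3.2% and 4.2%) and the interferon-stimulated response element in 2 (2.11%, against 2.7% and 3.65%), and neither the DR5 retinoic acid response element nor the p53 core was in any of the 95. TATAAA was in 12 (12.6%, against 5.38% and 12%). Read on the strand of the gene and starting 20 to 40 bases before the start, where a TATA box sits, TATAAA was in 5 (5.26%, against 1.51% and 2.55%); this window was chosen after the letters had been counted. A match describes letters and is not a bound site. The median GC content was 64% in the 95 promoters and 65.3% in the promoters of the more abundant genes (a mean of 50 or more). The median number of CG dinucleotides per 300 bases was 22 in the 95 and 26 in the more abundant genes.

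The 5 promoters with TATAAA in that window are shown, since they belong to genes of unlike function (a transcriptional inhibitor, a death ligand, a stress gene, a neuronal gene and a matrix gene), together with that of IGFBP5, the gene with the largest rise. Each is the 250 bases before the start, 5′ to 3′ on the strand of the gene. Capitals mark TATAAA on either strand in the first 5, which in ID1 are a pair of overlapping matches on opposite strands starting 33 and 31 bases before the start, and the TEAD letters on the opposite strand, starting 235 bases before the start, in IGFBP5. The matches in TNFSF10 and C10orf10 started 31 bases, and those in NDRG4 and MAMDC2 29 bases, before the start. ID1 lies at chr20:31605039-31605288, plus strand, TNFSF10 at chr3:172523431-172523680, minus strand, C10orf10 at chr10:44978810-44979059, minus strand, NDRG4 at chr16:58499893-58500142, plus strand, MAMDC2 at chr9:70043331-70043580, plus strand, and IGFBP5 at chr2:216695550-216695799, minus strand, all in GRCh38.p14.
ID1: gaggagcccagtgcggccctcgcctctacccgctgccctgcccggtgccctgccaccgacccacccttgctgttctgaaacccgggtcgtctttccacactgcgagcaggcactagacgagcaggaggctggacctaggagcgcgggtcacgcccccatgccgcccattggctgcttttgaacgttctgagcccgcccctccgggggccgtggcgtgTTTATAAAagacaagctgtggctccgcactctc
TNFSF10: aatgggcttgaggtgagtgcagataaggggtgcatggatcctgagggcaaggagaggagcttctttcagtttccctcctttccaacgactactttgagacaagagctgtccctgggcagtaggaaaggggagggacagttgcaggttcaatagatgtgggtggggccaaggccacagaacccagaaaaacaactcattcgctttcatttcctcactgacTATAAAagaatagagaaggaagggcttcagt
C10orf10: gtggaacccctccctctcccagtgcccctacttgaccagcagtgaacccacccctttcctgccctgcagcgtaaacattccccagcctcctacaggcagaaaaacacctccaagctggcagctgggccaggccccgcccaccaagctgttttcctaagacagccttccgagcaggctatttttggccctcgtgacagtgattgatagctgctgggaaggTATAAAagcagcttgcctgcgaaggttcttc
NDRG4: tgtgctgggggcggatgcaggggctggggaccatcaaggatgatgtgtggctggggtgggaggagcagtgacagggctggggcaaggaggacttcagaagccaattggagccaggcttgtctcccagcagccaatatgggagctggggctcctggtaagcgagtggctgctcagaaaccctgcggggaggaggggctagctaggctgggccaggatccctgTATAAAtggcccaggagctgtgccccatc
MAMDC2: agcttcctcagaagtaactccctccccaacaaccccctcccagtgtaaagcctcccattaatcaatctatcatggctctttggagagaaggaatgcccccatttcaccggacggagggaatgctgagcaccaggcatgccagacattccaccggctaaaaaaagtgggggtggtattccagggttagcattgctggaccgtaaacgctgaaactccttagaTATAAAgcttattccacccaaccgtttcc
IGFBP5: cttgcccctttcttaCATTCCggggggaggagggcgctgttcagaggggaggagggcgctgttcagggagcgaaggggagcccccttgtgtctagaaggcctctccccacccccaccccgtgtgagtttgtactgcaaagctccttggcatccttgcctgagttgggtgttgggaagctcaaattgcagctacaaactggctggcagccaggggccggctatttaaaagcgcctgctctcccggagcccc

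Secreted and matrix proteins made up 18 of the 127 genes and included the steepest rises, with a median of 1.36. IGFBP5, an insulin-like growth factor binding protein that is secreted and held in the matrix, lies on chromosome 2 from 217536828 to 217560272 (GRCh37). It was at 3 and 12 in SB, 5 and 11 at 3 days and 276 and 280 at 7 days. The 7-day mean was 278 ± 2.83 (SD, n = 2) and the 3-day mean 8 ± 4.24, a 34.8-fold difference of means. All 4 earlier libraries were close to the lower end of detection, so the size of the fold depended on the pseudocount, and its rise was 5.04 with a pseudocount of 1 and 4.48 with 5. IGFBP6, which prefers IGF2, was present throughout, at 1839 and 2045, then 2292 and 2802, then 5819 and 5079. It thus differed from IGFBP5 in its early level, which per kilobase of transcript was 2051 in SB.

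Matrix remodeling genes followed. MMP28 (epilysin), a secreted metalloproteinase, was at 23 and 21 in SB, 19 and 23 at 3 days and 111 and 117 at 7 days. MMP11 (stromelysin-3) went from 25 and 45 and from 31 and 45 to 142 and 136. For both, the lowest 7-day library was at least 3.02 times the highest earlier library. HAS2, which makes the matrix polymer hyaluronan, was at 99 and 175 in SB, 143 and 153 at 3 days and 522 and 554 at 7 days, a 3.64-fold difference of means between 7 and 3 days. Its antisense transcript HAS2-AS1 was at 31 and 32, then 37 and 16, then 99 and 109. The gene bodies overlap by 2148 bases on chromosome 8, and the library kit does not mark strand, so reads from the overlap cannot be assigned to either gene with certainty. COL13A1, a transmembrane collagen, rose from 705 and 824 and from 867 and 1053 to 2662 and 2233, and COL14A1, a fibril-associated collagen, from 172 and 248 and from 228 and 179 to 404 and 442. MFGE8, a bridging protein for the clearance of dying cells, was among the most abundant of the group at 4122 and 4675, then 4485 and 5582, then 11669 and 10025. HS3ST1 (a heparan sulfate sulfotransferase), VWA1, MAMDC2 and IGIP completed the matrix and secretory part, with rises of 1.27 to 1.62.

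Ligands and a protease inhibitor were also among the secreted genes. IL1A, an alarmin cytokine, was at 67 and 140 in SB, 92 and 72 at 3 days and 264 in both 7-day libraries. TNFSF10, which encodes the death ligand TRAIL, was at 91 and 153, then 131 and 122, then 325 and 327. EGF, the epidermal growth factor precursor, held 324 and 319 in SB, 377 and 385 at 3 days and 824 and 805 at 7 days. The pairs of EGF were close in every group. INHBE and INHBA encode inhibin beta subunits of the TGFβ superfamily. INHBE went from 55 and 70 and from 56 and 70 to 196 and 177. INHBA went from 88 and 48 and from 56 and 55 to 130 and 108, so its lowest 7-day library was only 1.23 times its highest SB library. SERPINA1 (α1-antitrypsin), an acute phase protease inhibitor, was at 4138 and 4260 in SB, 5496 and 5383 at 3 days and 11332 and 11308 at 7 days. It had a small step at 3 days and a larger one after.

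**Figure D2:**
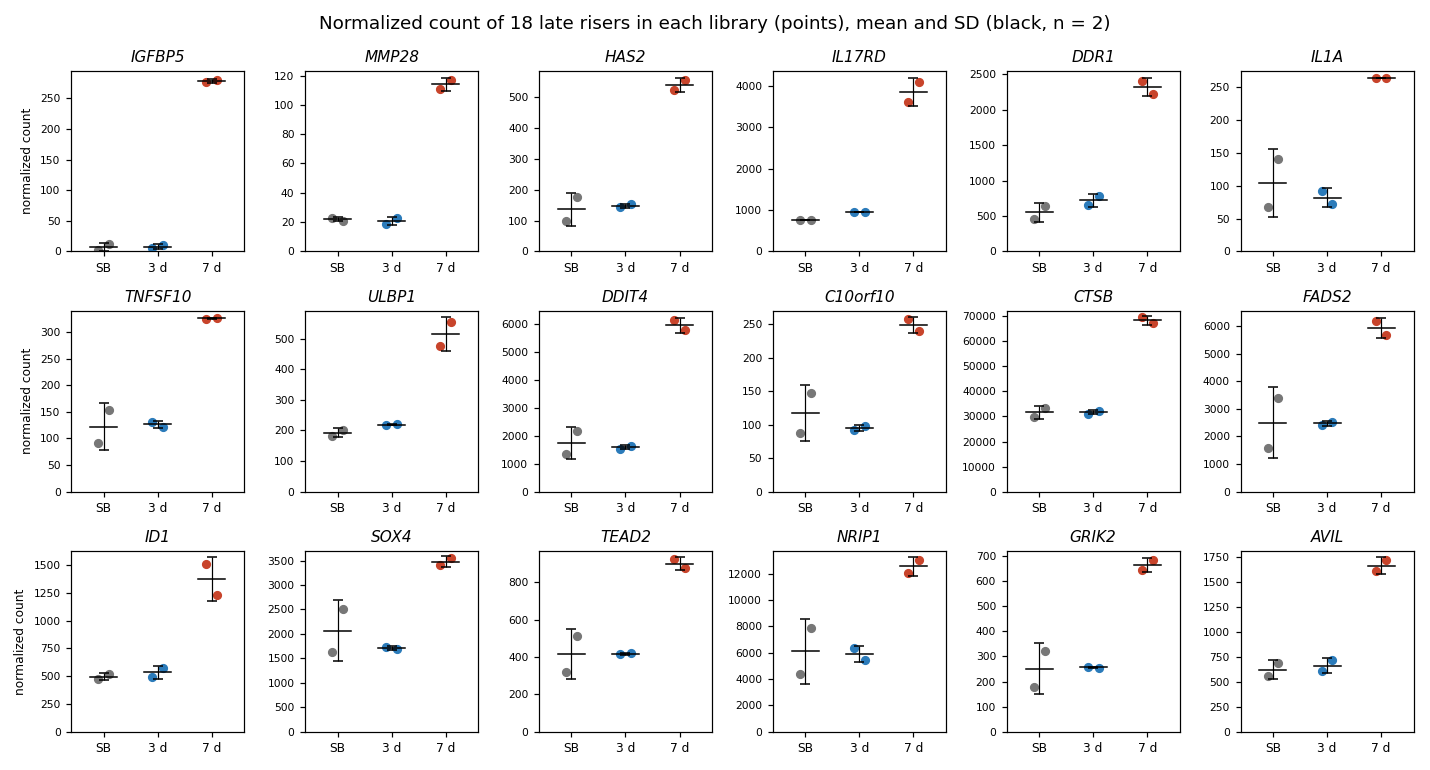
Normalized counts of 18 late risers are shown for SB, TGFβ 3 days (3 d) and TGFβ 7 days (7 d), with a point for each library and the mean and SD (n = 2) in black; each y axis starts at 0. In every panel both 7-day points lie above the other 4, and in several genes, FADS2 (1589 and 3406) and GRIK2 (179 and 323) among them, the SB points lie further apart than the 3-day points.

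Receptors, membrane ligands and signaling genes numbered 25, with a median rise of 1.22. IL17RD (Sef), a membrane protein known to restrain FGF and MAPK signaling, was at 761 and 755 in SB, 961 and 963 at 3 days and 3613 and 4093 at 7 days. It lies on chromosome 3 from 57124010 to 57204334 (GRCh37), and its 7-day mean was 3853 ± 339 (SD, n = 2), or 4.01 times the 3-day mean. DDR1, a receptor tyrosine kinase for collagen, was at 460 and 643, then 654 and 786, then 2410 and 2227. Its difference at 3 days was 0.40, just inside the limit. GABBR1, a GABA-B receptor subunit, was at 43 and 75 in SB, 74 and 66 at 3 days and 271 and 289 at 7 days. FOLR1, the folate receptor, went from 32 and 54 and from 43 and 49 to 159 and 137. In each of these 4 genes the lowest 7-day library was at least 2.54 times the highest of the others.

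Ephrins, which signal between cells through Eph receptors, were represented by EFNB3 and EFNB1. EFNB3 was at 47 and 93, then 71 and 58, then 209 and 196, and EFNB1 at 115 and 102, then 96 and 137, then 280 and 232. SEMA4G, a semaphorin, went from 79 and 150 and from 100 and 112 to 236 and 228. FGF11, an intracellular FGF homologue, had 21 and 66 in SB, 50 and 49 at 3 days and 129 and 126 at 7 days, so its SB libraries differed more than 3-fold while its later pairs were close. Immune-related genes of the group were ULBP1, a ligand of the NK cell receptor NKG2D, the Toll-like receptor TLR2, the kinase JAK3 and the B-cell scaffold gene BANK1. ULBP1 was at 183 and 203 in SB, 219 and 220 at 3 days and 476 and 555 at 7 days, and TLR2 at 110 and 128, then 116 in both, then 232 and 286. JAK3 and BANK1 rose by 1.32 and 1.01. Adenylyl cyclase ADCY5 went from 37 and 86 and from 47 and 54 to 170 and 169. Late risers on the list of G protein-coupled receptors used below were BAI2, LPHN1, GPRC5C and GPR173. GABBR1 is not on that list. LPHN1, an adhesion receptor, was at 231 and 475 in SB, 250 and 307 at 3 days and 598 and 561 at 7 days, with the lowest 7-day library 1.18 times the second SB library. The exchange factors ARHGEF25 and PLEKHG1, the kinase MAP3K12 and the genes MCC, IFITM10 and TBC1D10A had rises of 1.03 to 1.56. MAP3K12 shares 1494 exon bases with PCBP2 on the opposite strand, so its counts are uncertain.

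Channels, synapse and vesicle genes made up 17 of the 127, with a median rise of 1.32, in cells of epithelial origin. STAC2, an adaptor of voltage-gated calcium channels, was at 11 and 37 in SB, 20 and 34 at 3 days and 121 and 123 at 7 days. Both earlier groups held a low first and a higher second library, and the 7-day pair was close. CNIH3, which accompanies AMPA receptors, was at 288 and 265, then 265 and 263, then 821 and 895. GRIK2, a kainate receptor subunit, was at 179 and 323 in SB, 259 and 256 at 3 days and 643 and 684 at 7 days. Of the ion channels, ASIC3 senses acid, HCN3 carries a pacemaker current, CACNB3 is a calcium channel subunit and ORAI3 a store-operated calcium channel. Their rises ranged from 1.08 to 1.32, and HCN3 had the smallest separation, at 52 and 94, then 49 and 58, then 149 and 121. HCN3 shares 556 exon bases with PKLR on the opposite strand. PPFIA4, a liprin also induced by low oxygen, was at 174 and 298, then 180 and 224, then 632 and 583. PCDHB9, a clustered protocadherin, was at 49 and 54 in SB, 62 and 61 at 3 days and 166 and 171 at 7 days. NLGN2 (a postsynaptic adhesion protein), RIMS3, SCAMP5, NBEA, SEZ6L2, NDRG4 and CACFD1 rose by 1.03 to 1.46. NDRG4, whose promoter with TATAAA is shown above, was at 349 and 470, then 355 and 392, then 985 and 905.

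Metabolism, lysosome and stress genes numbered 19, with a median rise of 1.29. DDIT4 (REDD1), which restrains mTORC1 under stress, was at 1353 and 2164 in SB, 1544 and 1640 at 3 days and 6154 and 5783 at 7 days. It lies on chromosome 10 from 74033678 to 74035794 (GRCh37), and its 7-day mean of 5969 ± 262 (SD, n = 2) was 3.75 times its 3-day mean. C10orf10 (DEPP1), a gene known to be induced by FOXO factors in fasting, was at 88 and 147, then 92 and 98, then 257 and 240. Both genes were lowest in the first SB library. CTSB, the lysosomal cysteine protease cathepsin B, was the most abundant late riser, also per kilobase of transcript, where its mean was 11758. Its libraries were at 29807 and 33418 in SB, 31073 and 32360 at 3 days and 69553 and 67136 at 7 days. The difference of means between 7 and 3 days was 2.15-fold, with an SD of 910 at 3 days and 1709 at 7 days (n = 2). CTSF, another cathepsin, was at 99 and 161, then 138 and 141, then 418 and 391. IDUA, a lysosomal hydrolase that removes iduronic acid from glycosaminoglycans, went from 51 and 71 and from 54 and 87 to 245 and 185, and shares 141 exon bases with SLC26A1 on the opposite strand.

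Lipid genes of the group included FADS2, the fatty acid desaturase at the start of polyunsaturated fatty acid synthesis, at 1589 and 3406 in SB, 2419 and 2525 at 3 days and 6190 and 5681 at 7 days. The second SB library of FADS2 lay above both 3-day libraries and the first below both. SLC27A1, a fatty acid transporter, was at 103 and 133, then 101 and 127, then 300 and 264. ACSF2, PLA2G4C, PLD3 and TLCD2 rose by 1.01 to 1.22. ENDOD1, an endonuclease-like gene, was among the more abundant, at 2835 and 3896, then 3548 and 3472, then 9197 and 9812. The glycine transporter SLC6A9, the sugar transporter SLC45A1, the GABA transaminase ABAT, the glycogen-targeting phosphatase subunit PPP1R3C, PIGZ, NDRG2 and ADC rose by 1.07 to 1.81. ADC was at 23 and 22, then 27 and 33, then 107 in both 7-day libraries, but its old symbol could not be matched to the annotation and it is named only as listed.

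Transcription and RNA regulators were the most numerous role, with 26 genes and a median rise of 1.14. ID1, an inhibitor of basic helix-loop-helix factors and a known BMP and TGFβ target, was at 472 and 517 in SB, 496 and 577 at 3 days and 1512 and 1231 at 7 days. Its earlier 4 libraries spanned 472 to 577. SOX4, a transcription factor of the EMT response, was at 1629 and 2504, then 1743 and 1690, then 3403 and 3555. TEAD2, a DNA-binding partner of YAP and TAZ, was at 322 and 511, then 414 and 419, then 923 and 875. NRIP1, a nuclear receptor corepressor, was among the most abundant, at 4365 and 7836 in SB, 6342 and 5466 at 3 days and 12052 and 13022 at 7 days. For SOX4, TEAD2 and NRIP1 the second SB library was the highest of the 4 earlier ones, and the lowest 7-day library was 1.36, 1.71 and 1.54 times that value.

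PPARA, the fatty acid sensing nuclear receptor, was at 232 and 322, then 212 and 243, then 439 and 488. TEF, a PAR bZIP factor of the circadian output, was at 406 and 526, then 387 and 396, then 926 and 797. Both lay lower at 3 days than in SB by -0.27 and -0.24, which did not pass the limma test. SATB1, a chromatin organizer, was at 23 and 31 in SB, 37 and 28 at 3 days and 88 and 106 at 7 days. Homeobox and related developmental genes were HOXC13, SHOX2, HOMEZ and the T-box gene TBX19, with rises of 1.05 to 1.38. HOMEZ shares 655 exon bases with C14orf164 on the opposite strand. BNC2, PIWIL4 (of the piRNA pathway), BCORL1, L3MBTL1, MEX3B and ZC3H6 rose by 1.0 to 1.42. The zinc finger and related genes ZNF862, ZNF92, ZNF221, ZNF503, ZFP14, ZMAT1, ZSWIM4, ZBED8 and KRBA2 rose by 1.02 to 1.49. Of these, ZNF92 was the most abundant by count, at 805 and 1013, then 990 and 827, then 1776 and 1986. ZNF221 had the narrowest separation of all 127 genes, at 38 and 57, then 34 and 37, then 66 and 83.

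Cytoskeleton, cilia and other proteins numbered 13, with a median rise of 1.13. AVIL (advillin) belongs to the gelsolin family of actin-binding proteins and was at 554 and 690 in SB, 608 and 715 at 3 days and 1605 and 1723 at 7 days. It shares 208 exon bases with TSFM on the opposite strand. FHL1, a LIM domain protein of muscle and other cells, was at 989 and 980, then 1136 and 1115, then 2388 and 2357. BTBD11 was at 1425 and 1454, then 1198 and 1105, then 2383 and 2353, so its 3-day libraries were the lowest. LCA5 (a ciliary gene), TRIM46, MYO15B, FBXO44, C12orf76, MAGEE1, CCDC136, HCFC1R1, KLHDC8B and SPAG8 rose by 1.0 to 1.21. The 9 non-coding and readthrough transcripts included HAS2-AS1, SERPINB9P1, FER1L4, ABCC6P1, MTMR9LP, LINC01355, LOC100129550 and CROCCP3, with a median rise of 1.11. SERPINB9P1 was at 93 and 122, then 114 and 112, then 374 and 377. ABCC6P1, MTMR9LP and CROCCP3 are annotated as unprocessed pseudogenes, which share sequence with a parent gene, so their counts are uncertain.

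**Figure D3:**
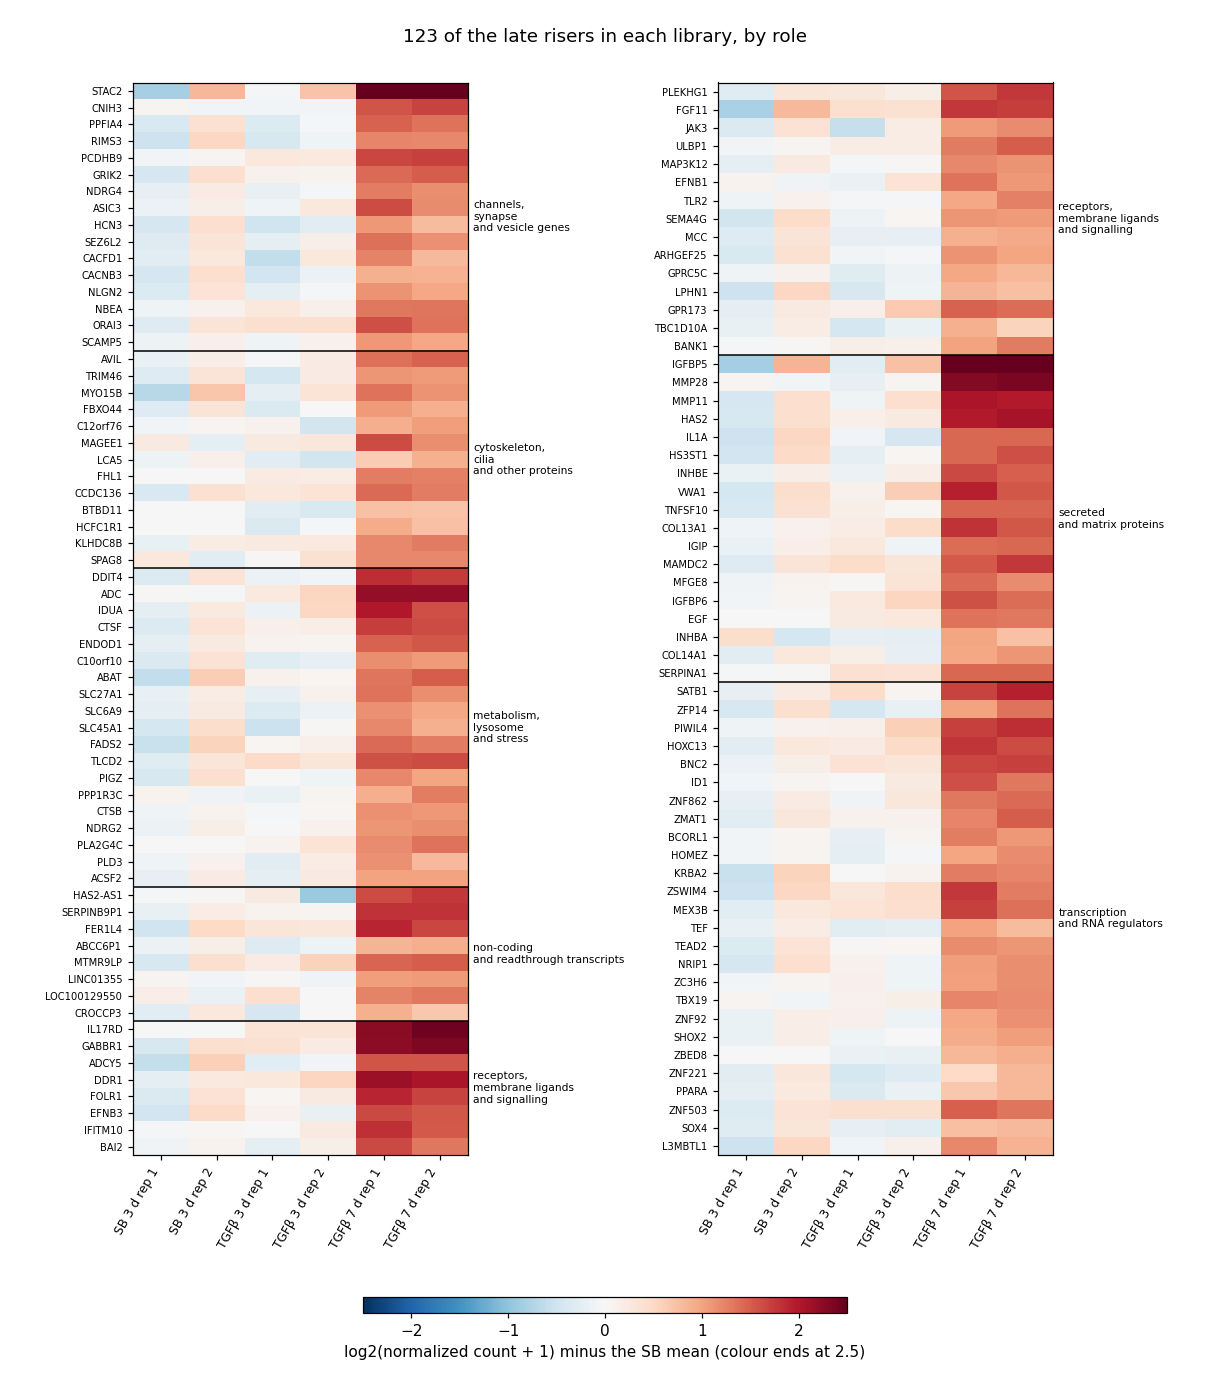
Late risers (123 of the 127) are shown in each library as log2(normalized count + 1) minus the mean of the SB libraries, grouped by role; colours end at 2.5, so IGFBP5 and STAC2 are drawn at the end of the scale. The 7-day columns are red in every row, the 3-day columns are mostly pale, and the first SB column is blue where the second is red in most rows.

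The SB libraries differed from each other more in the late risers than in other genes. The second SB library was above the first in 107 of 127 late risers (84.3%), against 46.7% of the 12307 genes. The median difference between the second and the first was 0.46 on the log2 scale in the late risers and -0.02 over the 12307. It exceeded 1 in size in 14 late risers (11%), against 1.13% of those genes, and the widest ratio was in IGFBP5 (3 and 12), STAC2 (11 and 37), FGF11 (21 and 66), MYO15B (48 and 128) and ABAT (25 and 60). The median size of the difference was smaller in the other pairs of the late risers, at 0.19 for 3 days and 0.13 for 7 days. Over the 12307 genes it was 0.12 and 0.11. The second 3-day library was above the first in 67.7% of the late risers, against 45.7% of the 12307. For the 7-day pair these shares were 43.3% and 53.4%. The same lean of the SB pair was present in the genes that were lower at 3 days and then rose (93.2% with the second library higher) and in those already higher at 3 days (65.4%). Its part in the choice of the genes was not tested. The limit on the 3-day difference uses the SB and the 3-day libraries. The rise from 3 to 7 days uses the 3-day libraries but not the SB libraries.

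**Figure D4:**
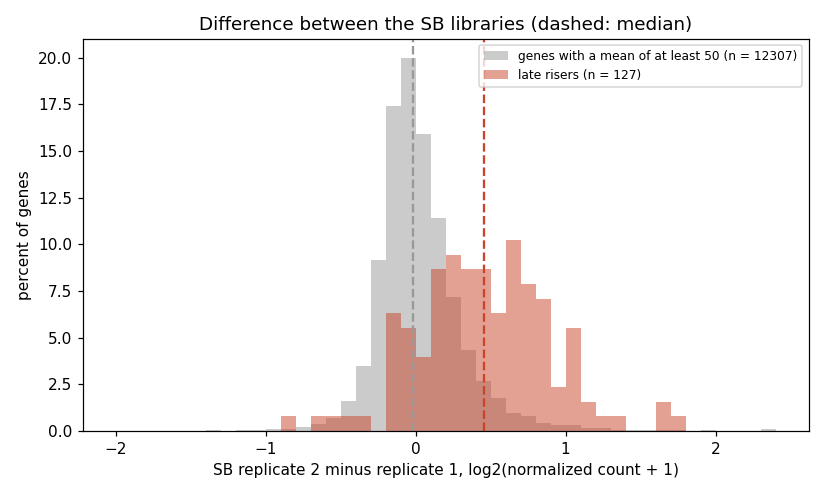
Histograms of the log2(normalized count + 1) difference between the second and the first SB library, as a percent of the 127 late risers (red) and of the 12307 genes averaging at least 50 (grey). The median (dashed) is 0.46 for the late risers and -0.02 for the grey genes.

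Which genes passed the rule depended on each library. Without the first SB library 116 genes passed, of which 85 were among the 127, and without the second 112 passed, again with 85 among the 127. Leaving out a 3-day library kept 87 or 102 of the 127, and leaving out a 7-day library kept 102 or 106. A core of 33 genes passed in all 6 of these settings, among them IL17RD, CNIH3, INHBE, BAI2, PCDHB9, ENDOD1, ID1, NDRG4, AVIL, ULBP1, MAP3K12, TEAD2, CTSB, EGF, FHL1 and SERPINA1. A stricter reading, with every 7-day library more than 1 above every 3-day library and every 3-day library within 0.4 of every SB library, left 26 genes, including IL17RD, ID1, CTSB, EGF, ULBP1 and TEAD2. IGFBP5, MMP28, STAC2 and HAS2-AS1, the largest rises and all of low count in the early libraries, passed in 3, 4, 1 and 3 of the 6 settings. MMP28 also met the stricter reading, and it was lost only without either 7-day library, where its mean fell to 40.6 or 39.4, under the minimum of 50.

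Transcripts of the late risers were rich in G and C. Their median GC content was 55.0% (125 genes with a value), against 47.9% over genes with a mean of at least 50, while the median transcript length was alike at 3379 and 3367 bases. The other rising genes were as GC rich, with medians of 55.5% in those already higher at 3 days and 54.9% in those lower at 3 days. After a correction of each library for GC content and length, 109 genes passed the rule, 93 of them among the 127. Protein-coding genes made up 92.9% of the late risers and 93.8% of genes with a mean of at least 50. Some lay near each other: NLGN2, FGF11 and EFNB3 are neighbors on chromosome 17, with gaps of 18412 and 260263 bases, and INHBE, ARHGEF25 and AVIL on chromosome 12, with gaps of 150899 and 180130 bases.

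Of the 127 genes, 51 were on at least 1 of the pathway lists, which were chosen with earlier results of these data known. Over all 14395 tested genes, 2449 were called higher and 2326 lower at 7 than at 3 days, with a median difference of 0.02. In the list of TGFβ and BMP family ligands, receptors and SMADs, 26 of 62 tested genes were higher and 5 lower, with a median of 0.36, and 3 (INHBE, INHBA and ID1) were late risers. The 2 largest called rises and the 2 largest called falls on that list were of genes outside the late risers. LEFTY1, a TGFβ family antagonist, rose by 3.56 with a limma adjusted p of 0.002602. It was at 0 and 5 in SB and 4 and 5 at 3 days, close to the lower end of detection, and 62 and 65 at 7 days. LTBP3, a latent TGFβ binding protein, rose by 2.78 with a limma adjusted p of 2.736e-05. The BMP antagonist GREM1 fell by 2.03 (0.002898, limma adjusted p) and TGFB2 by 1.06 (0.0009432). Among growth factors and receptor tyrosine kinases, 14 of 65 were higher and 14 lower, with a median of 0.17, and 5 were late risers (IGFBP5, IGFBP6, DDR1, EGF and FGF11). The matricellular gene CYR61, on the same list, fell by 3.48 (limma adjusted p 1.62e-06), from 15074 and 14686 at 3 days to 1408 and 1262 at 7 days.

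Matrix lists leaned upward at 3 days against SB and again from 3 to 7 days. At 3 days, collagen chains had 11 higher and 1 lower (median 0.61). Matrix proteases and inhibitors had 26 and 5 (median 0.25), and other extracellular matrix genes 19 and 3 (median 0.46). From 3 to 7 days, 12 of 25 collagen chains were higher and 2 lower, with a median of 0.56 and 2 late risers. Of 58 matrix proteases and inhibitors, 26 were higher and 4 lower, with a median of 0.43 and 2 late risers. COL5A1, a fibrillar collagen outside the late risers, had 30 and 50 in SB, 508 and 605 at 3 days and 2770 and 2465 at 7 days, so it rose in both steps. HTRA1, a secreted protease, went from 121 and 249 to 727 and 769 and then 5449 and 5864. The 45 other extracellular matrix genes had 21 higher and 5 lower, with 0 late risers, and the 22 integrins held 0. Axon guidance and neural adhesion genes had 31 higher and 7 lower of 63, with a median of 0.49 and 4 late risers (EFNB1, EFNB3, NLGN2 and SEMA4G). Ion channels had 36 higher and 6 lower of 123, with a median of 0.27 and 5 late risers. The list of G protein-coupled receptors, which does not hold GABBR1, had 27 higher and 12 lower of 98, with 4 late risers.

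Lysosomal hydrolases and membrane proteins had 36 genes higher and 3 lower of 86 tested, with a median of 0.19, and 3 were late risers (CTSB, CTSF and IDUA). At 3 days against SB the same list had 17 higher and 16 lower, with a median of 0.01. The list of FOXO targets and nutrient response genes had 19 higher and 7 lower of 40, with a median of 0.30, and DDIT4 was the late riser on it. C10orf10, described above as induced by FOXO factors, is not on that list. Hypoxia-inducible genes had 14 higher and 3 lower of 25, with PPFIA4 as the late riser, and circadian clock and PAR bZIP genes 9 higher and 2 lower of 21, with TEF. PER3, a clock gene outside the late risers, was at 339 and 611 in SB, 311 and 337 at 3 days and 1024 and 1011 at 7 days. Lipid transport and storage genes had 26 higher and 12 lower of 83, with 4 late risers (FADS2, PLA2G4C, PPARA and PLD3). Complement and acute phase genes had 13 higher and 1 lower of 23, with SERPINA1 as the late riser. SERPINA3 of that list was at 9 and 26, then 8 and 9, then 185 and 196, a rise of 4.34 with a limma adjusted p of 3.171e-05, and its difference of -0.79 at 3 days placed it outside the late risers.

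Late risers made up 0.882% of the 14395 genes tested, and nothing is read from small counts or counts of 0 on single lists at that share. The chemokine and cytokine list held 2 of 31 (IL1A and TNFSF10), solute carriers 3 of 246, cadherins and protocadherins 1 of 54 (PCDHB9), nuclear receptors 1 of 32 (PPARA), lung epithelial lineage genes 1 of 28 (SOX4) and contractile genes 1 of 46 (AVIL). ZNF genes held 4 of 468, and LINC and antisense transcripts 3 of 816. No late riser was on the lists of MHC class I (22 tested), MHC class II (12), interferon-stimulated genes (54), WNT (34), Notch (25), retinoid metabolism (23), xenobiotic and steroid enzymes (77), ABC transporters (31), p53 targets (27), EMT transcription factors and their opponents (17) or clustered histone genes (16). Interferon-stimulated genes had a median of -0.60 at 3 days against SB, with 6 higher and 27 lower, and 0.25 at 7 against 3 days, with 16 higher and 6 lower. On that list the SB libraries lay far apart in OAS1 (60 and 292) and XAF1 (13 and 136). They were close in HERC5 (516 and 472) and TRIM14 (1515 and 1561). The part of the SB pair in the 3-day median was not tested.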

How the data were processed

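RNA-seq was performed on poly(A) RNA of H2087-LCC cells with a kit that does not mark strand. The authors checked reads with FastQC 0.11.5, mapped them to hg19 with STAR, counted genes with HTSeq 0.6.1p1 and normalized by library size. The deposited values, recorded as a score, are these normalized counts rounded to whole numbers for 21293 genes; the read depth behind them cannot be recovered, so no counting intervals are given.

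Values were transformed as log2(value + 1). A limma trend fit (limma 3.58.1, R 4.3.3) took the 14395 genes averaging 10 or more, with 3 groups and 3 residual degrees of freedom, and p-values were adjusted by the Benjamini-Hochberg method over all of them at 0.05; p-values measure the spread between libraries, which may be technical. The script was tested on simulated data. Gene positions and transcript properties came from GENCODE 44 lifted to GRCh37, promoters from RefSeq. GC content and length were corrected with a loess fit (span 0.5).

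The late risers and all lists were chosen with earlier results of these data known. Named genes were the 20 largest rises, the 10 highest means, members of the lists, 3 genes on either side of each limit, and at most 2 rises and 2 falls per list outside the group. Roles, and genes named beyond this rule, were chosen after their values were seen. A few late risers are counted but not reported by name here. Alternatives changed the pseudocount, filter, scaling, limits, trend, libraries and replicate block.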

Additional observations from a re-analysis of the deposited data

How the results depend on the processing

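Counts of late risers changed by over 1.5 times from 127 with no filter on the mean (367), a 3-day limit of 0.2 (71), a rise above 0.8 (221) or 1.2 (64), and with every library taken by itself (26, chosen after seeing the data); these settings loosen or tighten the rule itself. Other pseudocounts, scalings and means of at least 20 or 100 gave 96 to 177, and leaving out each library in turn 112 to 153. Of the 127, 108 passed under all 3 other scalings. The median difference between 7 days and SB stayed between 1.26 and 1.32 in the settings that kept the limits on both differences. Those limits confine this median in each setting, so nothing is read from its steadiness.

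Calls between 7 and 3 days (4775 in the limma fit) were 3042 with no filter and 3122 without the trend, and 2294 to 5570 when 1 library was left out; the fewest came without the second 7-day library. Calls between 3 days and SB (4170) were 2608 to 3894 with 1 library left out, the fewest without the first 3-day library. With equal library totals, the calls at 3 days split into 1819 higher and 2552 lower, against 2149 and 2021. Calls between 7 days and SB (7851) stayed within 1.5 times. With the replicate number as a block, calls were 4485, 3943 and 7546 for 7 against 3 days, 3 days against SB and 7 days against SB. The libraries share only a number: second-minus-first differences across genes correlated at 0.22 for SB and 3 days, -0.12 for SB and 7 days and -0.58 for 3 and 7 days. With crossed numbers, added after seeing the data, 5972 genes were called between 7 and 3 days.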
